A study of Mus musculus with 5 samples.

Results

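The interferon-induced transmembrane (Ifitm) genes examined were Ifitm1, Ifitm2, Ifitm3 and Ifitm6, chosen by name from the 21995 genes of the count matrix. They are 4 of the 7 Ifitm genes measured and held nearly all Ifitm molecules: 79325, 160981, 87555 and 89504 in kept cells, against 62 to 572 for Ifitm5, Ifitm7 and Ifitm10. The cells were sorted as viable CD11b+Ly6G+ neutrophils from 6 sources (spleen, liver, lung, intestine, marrow of the femur, and blood) of C57BL/6 mice kept at steady state, with no allele or treatment named. The young animals' age is 10 weeks in the sample labels but 8 weeks in the design text, and the aged animals' is 20 months. Young and old cells of all tissues were multiplexed into 2 cartridges of a microwell single-cell system, here pools YO1 and YO2. A barcode in the matrix tells its pool, not the tissue or age it came from, so tissues and ages could not be compared, and the classes may differ in the tissues and ages they hold.

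IFITM proteins are small membrane proteins that hinder the fusion of enveloped viruses with host membranes. IFITM3 acts mainly in endosomes and IFITM1 mainly at the cell surface, while less is known of Ifitm6, a mouse family member found in myeloid cells. Interferons induce several family members, and promoters of interferon-induced genes often carry the interferon-stimulated response element (ISRE) or the gamma-activated site (GAS). Neutrophils are made in bone marrow, where cycling precursors give way to cells that fill secondary granules with proteins such as lactoferrin (Ltf) and neutrophilic granule protein (Ngp), and then to mature cells.

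The 4 genes lie within 63088 bases of chromosome 7, and in the GRCm38 annotation (GENCODE M21) all are protein-coding. Ifitm2 spans chr7:140954837-140955987 on the minus strand, Ifitm1 chr7:140967221-140969825 on the plus strand, Ifitm3 chr7:141009586-141010770 and Ifitm6 chr7:141015699-141017924, both on the minus strand. The promoter windows below, from RefSeq on GRCm38.p6, run 5′ to 3′ from 250 bases before to 50 bases after each gene's RefSeq start. That start can differ from the GENCODE span. They are shown because interferon-high cells differed in Ifitm3. Capitals mark the ISRE core, searched on both strands as GAAA, any 2 bases and GAAA. Windows are chr7:141010695-141010994 (minus strand) for Ifitm3, chr7:140955912-140956211 (minus) for Ifitm2, chr7:140967826-140968125 (plus) for Ifitm1 and chr7:141016843-141017142 (minus) for Ifitm6.
Ifitm3: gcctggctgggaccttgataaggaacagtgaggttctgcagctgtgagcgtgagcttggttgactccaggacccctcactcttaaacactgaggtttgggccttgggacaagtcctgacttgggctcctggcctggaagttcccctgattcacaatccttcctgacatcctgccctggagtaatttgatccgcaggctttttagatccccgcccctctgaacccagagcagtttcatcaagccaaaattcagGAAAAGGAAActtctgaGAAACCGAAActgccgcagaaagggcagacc
Ifitm2: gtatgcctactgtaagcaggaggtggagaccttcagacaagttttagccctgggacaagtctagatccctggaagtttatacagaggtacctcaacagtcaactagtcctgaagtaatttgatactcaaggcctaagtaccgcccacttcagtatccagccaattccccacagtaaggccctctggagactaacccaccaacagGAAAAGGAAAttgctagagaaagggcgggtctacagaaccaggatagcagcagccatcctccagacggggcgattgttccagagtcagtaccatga
Ifitm1: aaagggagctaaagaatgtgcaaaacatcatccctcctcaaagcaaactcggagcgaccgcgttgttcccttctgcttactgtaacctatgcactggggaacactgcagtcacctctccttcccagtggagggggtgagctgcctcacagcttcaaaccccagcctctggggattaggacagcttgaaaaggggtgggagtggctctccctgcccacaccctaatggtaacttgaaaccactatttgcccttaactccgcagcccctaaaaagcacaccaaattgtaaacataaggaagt
Ifitm6: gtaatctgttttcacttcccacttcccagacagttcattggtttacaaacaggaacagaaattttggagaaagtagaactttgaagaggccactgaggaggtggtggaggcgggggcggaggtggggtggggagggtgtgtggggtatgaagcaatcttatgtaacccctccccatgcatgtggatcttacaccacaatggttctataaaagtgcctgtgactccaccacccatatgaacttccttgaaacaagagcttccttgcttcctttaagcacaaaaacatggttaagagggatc
Ifitm3 held 2 ISRE cores, GAAAAGGAAA and GAAACCGAAA, starting 2 and 19 bases past the annotated start. Ifitm2 held 1, GAAAAGGAAA, and the Ifitm1 and Ifitm6 windows held none. The Ifitm1 and Ifitm6 windows lie inside the GENCODE spans given above, so bases before those spans were not searched. Of 32851 promoters of this length, 1131 held the ISRE core (3.44%). The GAS letters TTCNNNGAA, present in 8.30% of promoters, occurred once in Ifitm3, overlapping its second ISRE core (TTCTGAGAA), and once in Ifitm6 (TTCCTTGAA). These matches describe the letters and were not tested as binding sites.

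After removal of barcodes with under 200 UMIs (unique molecular identifiers, 1 per captured mRNA molecule), under 100 genes or 20% or more mitochondrial UMIs, 19505 YO1 cells and 17215 YO2 cells remained, with medians of 1231 and 1454 UMIs. Cells with at least 2 UMIs of the proliferation genes Mki67 and Top2a were called cycling, those with at least 5 Ltf UMIs Ltf-high, and those with at least 10 Ngp but fewer than 5 Ltf UMIs Ngp-positive Ltf-low. Mature neutrophils had at least 2% of their UMIs in S100a8 and S100a9, abundant calcium-binding proteins, and fewer than 3 Ngp UMIs. In order from cycling to mature, these stages held 828, 2234, 444 and 10325 YO1 cells and 182, 451, 33 and 10045 YO2 cells, or 70.9% and 62.2% of the kept cells. Marker lists placed 2384 YO1 and 1978 YO2 cells in other lineages, and 3290 and 4526 cells (16.9% and 26.3%) met no rule. Levels are given in CPM, the count of a gene divided by all UMIs of the class and scaled to counts per 1e6. The labels do not say which animals went into each pool, so p-values measure how far 2 pools disagree, not the spread between animals. Intervals on levels and shares cover counting error only. Intervals on log2 changes are normal approximations from the SE and are narrower than the test below implies. Such an interval can exclude 0 where the unadjusted p does not reach 0.05. All p-values below are two-sided from edgeR's quasi-likelihood test on UMIs summed by class and pool, with Benjamini-Hochberg adjustment over all genes tested and 0.05 as the threshold.

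All 8 neutrophil markers had UMIs in each stage of both pools, and 6 of the 8 were found in at least 20% of mature cells in each pool. They summed to 85048 and 68538 CPM in mature cells, but they include S100a8 and S100a9, which define that class. Every stage, mature cells among them, also held UMIs of other lineages' markers. In YO1, the cycling class held 189 cells with fewer than 5 Ltf UMIs, in which the primary granule genes Elane and Mpo stood at 4811 and 4550 CPM. In YO2, 117 such cells had 0 UMIs of either gene, and the cycling class carried 6 of 6 plasma cell markers at 25003 CPM in sum, against 829 CPM in YO1. In the 33 YO2 Ngp-positive Ltf-low cells the same markers summed to 33214 CPM, against 68.8 CPM in YO1. The medians were only 4 plasma marker UMIs per YO2 cycling cell, of 35115 in all, and 1 per YO2 Ngp-positive Ltf-low cell, of 3597 in all, so a minority of cells held most of them. The part of these markers in the results below was tested only by leaving out cells that hold them. No cells were removed as doublets, and 374 barcode numbers occurred among the kept cells of both pools.

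UMI counts are not divided by transcript length, and capture was not measured gene by gene, so the 4 genes are set side by side only as shares of their summed UMIs. In Ltf-high cells, Ifitm6 made up 70.2% of the UMIs of the 4 genes in YO1 (95% exact binomial interval 69.9 to 70.6) and 71.1% in YO2 (70.4 to 71.7). In mature cells the Ifitm6 share was 6.00% and 4.52%, and Ifitm2 was the largest with 51.2% in YO1 and 47.9% in YO2. The Ifitm1 share was 1.60% and 3.56% in Ltf-high cells, against 26.2% and 33.7% in mature cells. Yet the 4 genes together stood at 7936 and 9880 CPM in Ltf-high cells, against 6764 and 6856 CPM in mature cells, so the leading gene differed, Ifitm6 in Ltf-high and Ifitm2 in mature cells, while the sum stayed within 1.5-fold. In cycling cells the sum was 2784 and 2187 CPM.

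**Figure D1:**
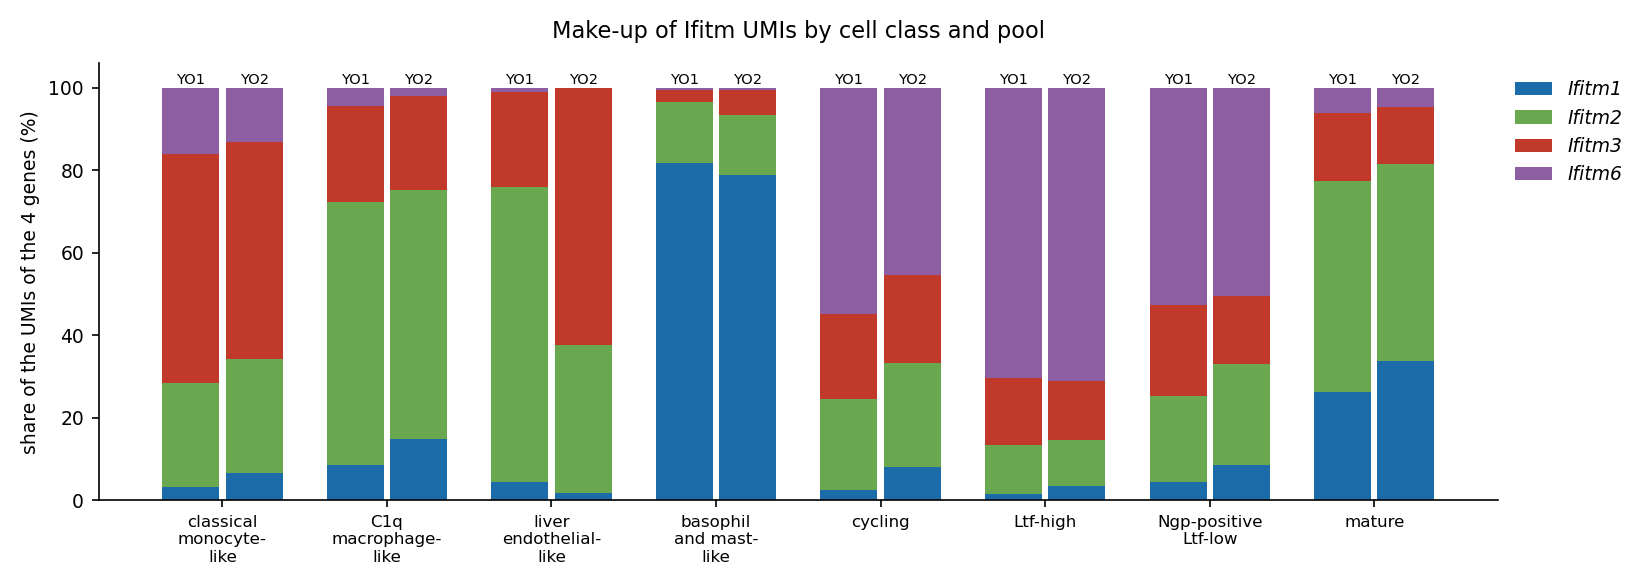
Shares of the UMIs of the 4 Ifitm genes (vertical axis, percent) in 4 other lineages and the 4 neutrophil stages, with 1 bar for each pool. Ifitm6 takes 70.2% and 71.1% in Ltf-high cells against 6.00% and 4.52% in mature cells, Ifitm3 leads in classical monocyte-like cells (55.4% and 52.4%) and Ifitm1 in basophil and mast-like cells (81.9% and 78.9%).

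Ifitm6 was highest in the granule-forming stages. From cycling to mature, it stood at 1527, 5575, 3753 and 406 CPM in YO1 and at 991, 7023, 3712 and 310 CPM in YO2. Of the 4 whole stages, Ltf-high cells were highest and mature cells lowest in both pools. The pools' values of neighbouring stages did not overlap. The part of the cycling class with fewer than 5 Ltf UMIs stood below mature cells, at 107 and 65.9 CPM. In Ltf-high cells Ifitm6 was higher than in mature cells by 4.27 ± 0.32 (log2 change ± SE, 2 pools; adjusted p = 7.79e-06, edgeR), a 19.3-fold difference, and 87 of 10397 tested genes had a larger rise. In Ngp-positive Ltf-low cells it was higher by 3.52 ± 0.31 (adjusted p = 2.02e-04, edgeR), with 58 genes rising more; without the YO1 sum of that stage the value was 3.60 and the adjusted p 0.0607. After thinning each cell to 500 UMIs, 91.2% of Ltf-high cells in YO1 and 96.9% in YO2 kept at least 1 Ifitm6 UMI, against 14.1% and 12.2% of mature cells; without thinning the shares were 99.4% and 100%, against 26.8% and 28.9%. In B-like cells, which should lack the gene, the thinned share was 3.31% and 0.685%.

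The cycling class held cells with and without Ltf. Among its cells with at least 5 Ltf UMIs (639 in YO1 and 65 in YO2), Ifitm6 stood at 2043 and 2779 CPM, whereas among those with fewer it stood at 107 and 65.9 CPM. The YO2 cells with fewer are those without Elane and Mpo UMIs, so they are not named here as a granule stage. For the whole class Ifitm6 was higher than in mature cells by 1.12 ± 0.28 (adjusted p = 0.00531, edgeR), and for the cells with at least 5 Ltf UMIs, a subset chosen after the data were seen, by 2.36 ± 0.24 (adjusted p = 5.1e-08, edgeR). Cells between the Ngp thresholds, with 3 to 9 Ngp and fewer than 5 Ltf UMIs (654 and 72 cells, in no stage), had Ifitm6 levels between those of Ngp-positive Ltf-low and mature cells, at 1767 and 1021 CPM.

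**Figure D2:**
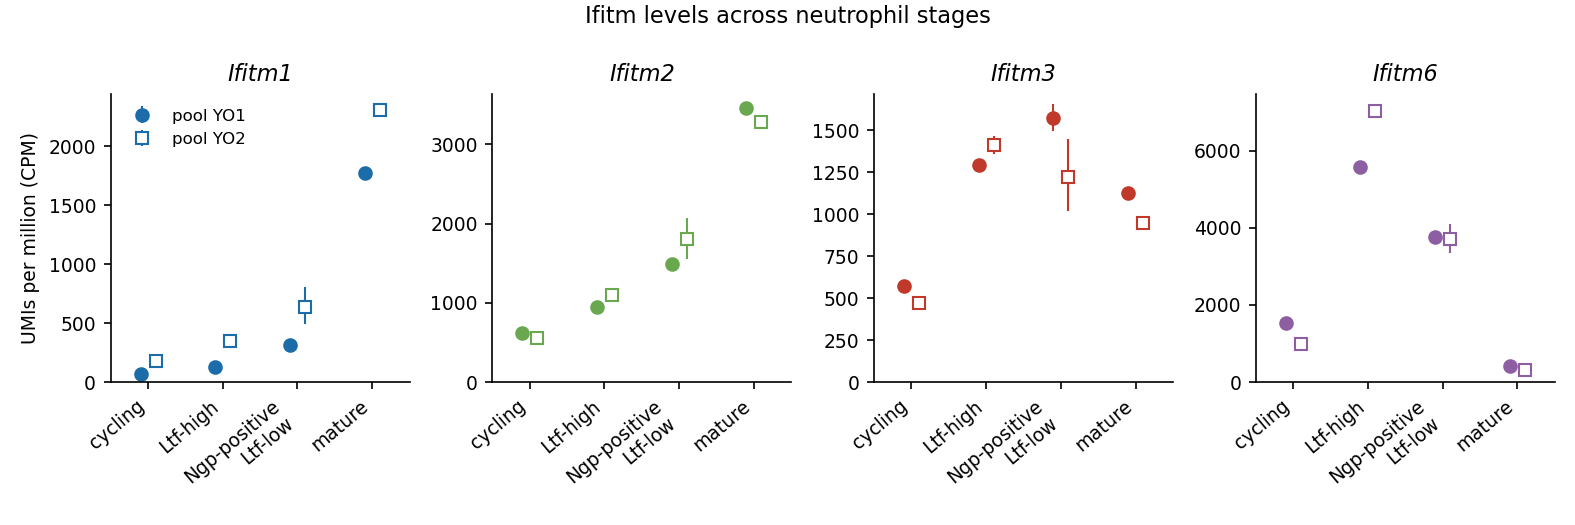
Level of each Ifitm gene (vertical axis, CPM, separate scale for each gene) in 4 neutrophil stages from cycling to mature; filled circles are pool YO1, open squares pool YO2, and bars are 95% exact Poisson intervals of the counts. Ifitm1 and Ifitm2 are highest in mature cells, Ifitm6 peaks in Ltf-high cells, and Ifitm3 is lowest in cycling cells.

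Ifitm1 and Ifitm2 were highest in mature cells, where Ifitm6 was lowest. Ifitm1 stood, from cycling to mature, at 66.8, 127, 311 and 1774 CPM in YO1 and at 177, 352, 637 and 2309 CPM in YO2. Its level was higher at each later stage within each pool, although the pools' ranges of the first 2 and of the middle 2 stages overlapped. The log2 change against mature cells was -4.96 ± 0.32 in cycling cells (adjusted p = 4.13e-07, edgeR) and -3.18 ± 0.29 in Ltf-high cells (adjusted p = 2.18e-05, edgeR). In Ngp-positive Ltf-low cells the change was -2.08 ± 0.29 (adjusted p = 0.00188, edgeR), a call that was lost without pool as a block (-2.04, adjusted p = 0.117) and without either pool's sum of that stage (adjusted p = 0.208 and 0.0606). B-like cells, taken here as a measure of background, had 153 and 320 Ifitm1 CPM. Within each pool the cycling level was not above the B-like level, nor was the YO1 Ltf-high level. The YO2 Ltf-high level (counting interval 326 to 379 CPM) cannot be told apart from the B-like level (286 to 357 CPM). This measure of background depends on the lineage. Plasma-like cells had 128 and 98.4 Ifitm1 CPM and T and NK-like cells 141 and 135 CPM, and the YO2 Ltf-high level was above both.

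Ifitm2 stood at 619, 943, 1487 and 3461 CPM in YO1 and at 550, 1094, 1801 and 3287 CPM in YO2, in the same stage order. All neighbouring stages were separated in both pools, and 75.9% and 76.2% of mature cells kept an Ifitm2 UMI after thinning to 500 UMIs, against 5.79% and 13.7% of B-like cells. B-like cells had 287 and 538 Ifitm2 CPM, so the YO2 cycling level cannot be told apart from the B-like level. Plasma-like cells had 268 and 216 Ifitm2 CPM and T and NK-like cells 180 and 442 CPM. The log2 change against mature cells was -3.23 ± 0.25 in cycling cells (adjusted p = 1.31e-06, edgeR), -1.63 ± 0.24 in Ltf-high cells (adjusted p = 3.8e-04, edgeR) and -0.92 ± 0.24 in Ngp-positive Ltf-low cells (adjusted p = 0.0442, edgeR). The last call was lost without pool as a block (-0.91, adjusted p = 0.111), with each single sum left out (adjusted p 0.115 to 0.51) and without cells that held 3 or more UMIs of other lineages' markers (-1.06, adjusted p = 0.0696). Leaving out the cells with other lineages' markers left only 216 YO1 and 10 YO2 Ngp-positive Ltf-low cells. Counts of Ifitm2 are uncertain in how reads were split between copies. Of the 42-base windows of its transcript (the length of 1 read), 51.0% also occur in Ifitm3, Ifitm7 or predicted gene models. The share was 14.0% for Ifitm3, 7.24% for Ifitm1 and 0 for Ifitm6.

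Ifitm3 in granule-forming cells stood above mature cells of the same pool, but these differences did not pass the test. Its levels from cycling to mature were 571, 1291, 1575 and 1123 CPM in YO1 and 468, 1411, 1219 and 949 CPM in YO2. The cycling class was lowest in both pools, and the pools differed on which middle stage was highest. Within that class, cells with at least 5 Ltf UMIs stood at 612 and 1013 CPM, the second value above mature cells of the same pool, and those with fewer at 458 and 186 CPM. In cycling cells the log2 change against mature cells was -1.70 ± 0.24 (adjusted p = 1.04e-04, edgeR), and without cells that held other lineages' markers, which left 71 and 9 cycling cells, it was -0.58 (adjusted p = 0.281, edgeR). For the cycling cells with at least 5 Ltf UMIs, a subset chosen after the data were seen, it was -0.75 (adjusted p = 0.00967, edgeR). Ifitm3 did not pass in Ltf-high cells (0.50 ± 0.23, approximate 95% interval 0.04 to 0.96, unadjusted p = 0.0551, adjusted p = 0.133, edgeR). Nor did it pass in Ngp-positive Ltf-low cells (0.57 ± 0.24, approximate interval 0.10 to 1.04, adjusted p = 0.228, edgeR). Against mature cells without interferon-gene UMIs, the Ltf-high change was 0.75 (adjusted p = 0.0279, edgeR) and the Ngp-positive Ltf-low change 0.82 (adjusted p = 0.0628). In 1 fit of 6 classes against the same interferon-0 cells, they were 0.77 and 0.84 and both passed (adjusted p = 0.00708 and 0.0179, edgeR).

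Many other genes were called in the same comparisons. In cycling cells all 4 Ifitm genes passed, 1 higher and 3 lower, as did 60.5% of 10397 genes (30.3% higher and 30.2% lower). In Ltf-high cells 3 passed, 1 higher and 2 lower, against 29.6% of genes (14.7% higher and 14.8% lower). In Ngp-positive Ltf-low cells 3 passed, 1 higher and 2 lower, against 5.9% (3.37% higher and 2.53% lower). Scaling mattered for the cycling class: with total UMIs in place of TMM scaling the median over all genes was 0.80, against 0.10 with TMM, 72.4% of calls were higher, against 50%, and the 4 Ifitm changes were -4.25, -2.53, -0.998 and 1.81, in the same directions and all passing. In Ngp-positive Ltf-low cells the median was -0.16 with TMM and -0.30 with total UMIs, and the higher share of calls was 57.1% and 43%.

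**Figure D3:**
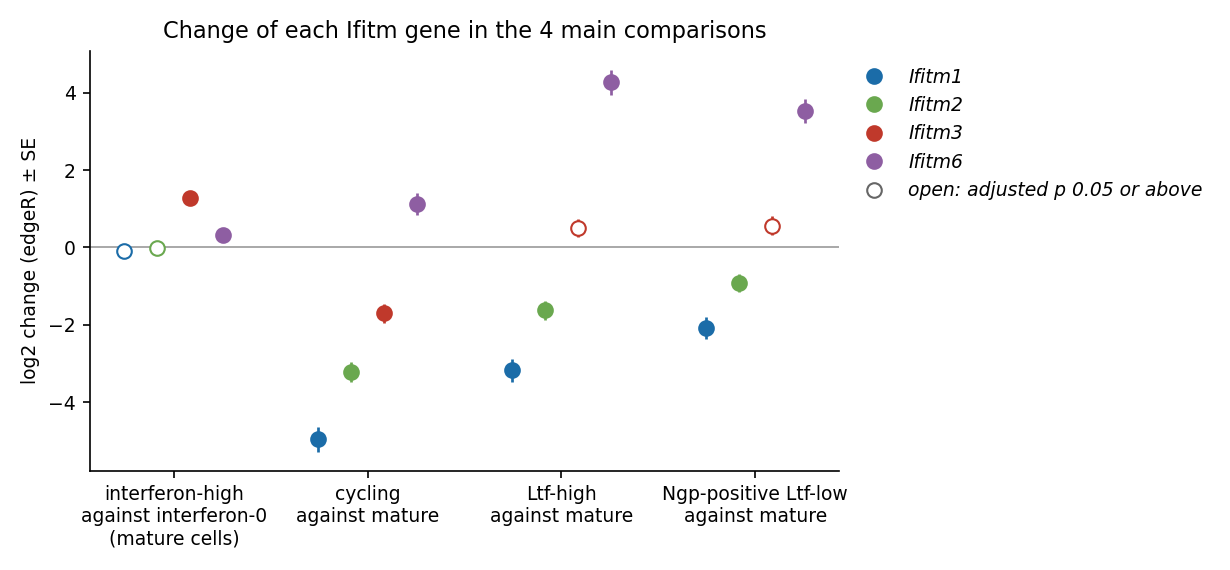
Log2 change of each Ifitm gene (vertical axis; points are edgeR estimates, bars ± 1 SE over 2 pools) in the 4 main comparisons; open points had an adjusted p of 0.05 or above. In interferon-high cells Ifitm3 stands at 1.28 and Ifitm1 and Ifitm2 near 0; at each earlier stage Ifitm6 is higher and Ifitm1 and Ifitm2 are lower, under all 3 scalings tried.

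Mature cells were divided by their summed UMIs of the interferon-induced genes Ifit1, Ifit3 and Rsad2, which are not Ifitm genes and were left out of the test. Interferon-high cells had at least 3 (599 in YO1 and 925 in YO2) and interferon-0 cells had none (8578 and 7683); 195 and 258 cells had exactly 3, and 353 and 428 had exactly 2. Ifitm3 stood at 2478 CPM in YO1 and 1723 CPM in YO2 in interferon-high cells, against 938 and 789 CPM in interferon-0 cells. Each pool's interferon-high value exceeded both interferon-0 values, by 2.64-fold within YO1 and 2.18-fold within YO2. The change was 1.28 ± 0.06 (adjusted p = 1.61e-14, edgeR; 2.42-fold). Without pool as a block it was 1.29 (adjusted p = 0.069, edgeR). After thinning to 500 UMIs, 62.8% and 53.0% of interferon-high cells held an Ifitm3 UMI, against 31.3% and 29.2% of interferon-0 cells. The unthinned shares were 83.3% and 84.8%, against 50% and 55.4%, at median depths of 1152 and 1494 against 1016 and 1326 UMIs.

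No such difference was seen for Ifitm1 and Ifitm2. Ifitm1 stood at 1678 and 2152 CPM in interferon-high cells, against 1789 and 2356 CPM in interferon-0 cells. Its log2 change was -0.10 ± 0.05 (approximate 95% interval -0.20 to -0.0004, unadjusted p = 0.0611, adjusted p = 0.411, edgeR). Ifitm2 stood at 3474 and 3141 CPM, against 3450 and 3310 CPM (-0.02 ± 0.05, interval -0.11 to 0.07, adjusted p = 0.897, edgeR). The sign of both small changes turned when cells were thinned (0.09 and 0.06) and when cells with other lineages' markers were left out (0.03 and 0.03). Ifitm6 stood at 477 and 379 CPM, against 404 and 296 CPM, a change of 0.31 ± 0.08 (adjusted p = 0.0126, edgeR). That call was lost without the block (0.30, adjusted p = 1), without a filter on low counts (0.24, adjusted p = 0.0638), with DESeq2 (0.32, adjusted p = 0.171) and in 3 of 4 fits that left out a sum (adjusted p 0.0737 to 0.192). In all, 2 of the 4 Ifitm genes passed, where 4.45% of 7961 genes did, and 268 genes had a larger rise than Ifitm3.

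Ifitm3 was graded with the interferon-gene count. In bins of 0, 1, 2, 3 to 5, 6 to 10 and over 10 UMIs per cell, Ifitm3 stood at 938, 1413, 1726, 2180, 2538 and 3477 CPM in YO1 and at 789, 1120, 1276, 1388, 1811 and 2546 CPM in YO2. Every step was upward in both pools. In cells thinned to 500 UMIs before they were binned the order was the same, from 934 to 3926 CPM in YO1 and from 824 to 3042 CPM in YO2 between the lowest bin and the bin of 6 to 10; the highest thinned bin held only 16 and 23 cells (6750 and 5043 CPM). Ifitm2 ranged between 3342 and 3557 CPM over the unthinned bins in YO1 and between 2888 and 3324 CPM in YO2. Ifitm1 ranged between 1380 and 1844 CPM in YO1 and between 1982 and 2356 CPM in YO2, with steps in both directions. Ifitm6 was highest in the highest bin of each pool, at 629 and 451 CPM.

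**Figure D4:**
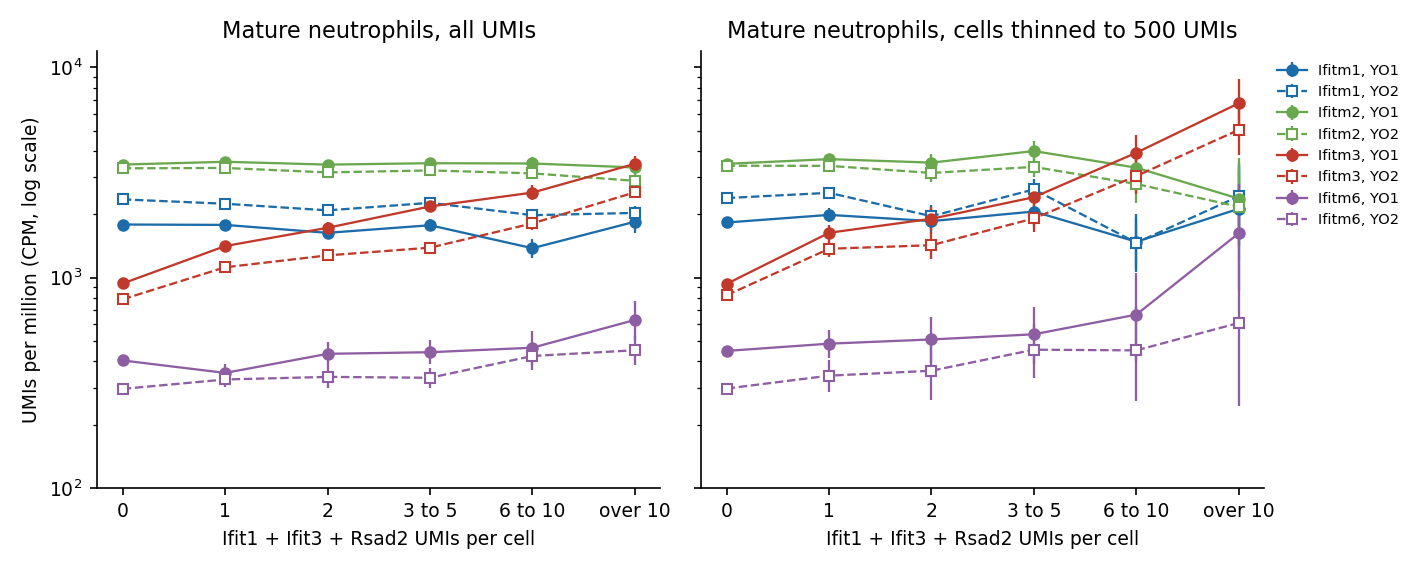
Level of the 4 Ifitm genes in mature neutrophils (vertical axis, CPM, log scale) by the summed Ifit1, Ifit3 and Rsad2 UMIs of a cell (horizontal axis), with all UMIs on the left and with cells thinned to 500 UMIs on the right; filled circles and full lines are YO1, open squares and dashed lines YO2, bars are 95% exact Poisson intervals. Ifitm3 goes up at every step on the left, to 3477 and 2546 CPM at over 10 UMIs. Ifitm2 there lies between 2888 and 3557 CPM and is lowest in the highest bin of each pool.

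Some other lineages' markers were also higher in interferon-high cells. The 6 classical monocyte markers summed to 1698 and 1388 CPM in interferon-high cells, against 1178 and 1026 CPM in interferon-0 cells. All 6 had UMIs in each of these sums. The 6 liver endothelial markers summed to 1104 CPM in YO1 and 2.90 CPM in YO2 in interferon-high cells, against 344 and 3.81 CPM in interferon-0 cells; Clec4g and Oit3 were at 0 in both YO2 classes. Without all cells that held 3 or more UMIs of other lineages' markers, 513 YO1 and 718 YO2 interferon-high cells remained and the Ifitm3 change was 1.41 ± 0.05 (adjusted p = 3.01e-31, edgeR).

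Of 56 listed interferon-stimulated genes, 53 were tested; 50 were higher in interferon-high cells and 3 did not pass, with a median log2 change of 2.20 against 0.00 over all genes, where 4.11% were called higher. The most abundant were Slfn4, a Schlafen family gene (2.08 ± 0.06), Ly6e, a membrane-anchored surface protein (1.20 ± 0.06), and Oasl2, an oligoadenylate synthetase-like antiviral protein (1.88 ± 0.06). Ifitm3, at 1.28, was below the list's median. The cells were chosen by 3 genes of the same response, so the direction of the list is not independent of the choice. Among 12 receptor and signalling genes 4 were higher, among them the transcription factor genes Stat2 (2.20 ± 0.13) and Irf9 (1.31 ± 0.07), which belong to both lists, and Socs1 (0.996 ± 0.241), an inhibitor of the pathway. The receptor genes Ifnar1 (0.01 ± 0.16), Ifnar2 (0.25 ± 0.15), Ifngr1 (0.11 ± 0.09) and Ifngr2 (-0.05 ± 0.09) did not pass.

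By stage, 42 of the 53 interferon-stimulated genes were lower in cycling cells and 11 did not pass, where 30.2% of all genes were lower, and 32 were lower and 2 higher in Ltf-high cells, where 14.8% were lower. Sp100, a nuclear body protein, and Samd9l, an antiviral protein, were the 2 higher in Ltf-high cells (0.78 ± 0.22 and 1.06 ± 0.20). In Ngp-positive Ltf-low cells 6 were lower and 1 higher, where 2.53% of all genes were lower and 3.37% higher. Of the receptor and signalling genes 10 of 12 were lower in cycling cells, 8 in Ltf-high cells and 2 in Ngp-positive Ltf-low cells. Socs3, a feedback inhibitor of cytokine signalling, had 22.1 and 43.3 CPM in Ltf-high cells, against 427 and 286 CPM in mature cells (-3.43 ± 0.34).

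Among genes whose products modify or work with IFITM proteins, 5 of 6 were tested in neutrophils. Zmpste24, a protease that works with IFITM proteins against viruses, stood at 444 and 515 CPM in Ltf-high cells, against 16.4 and 13.5 CPM in mature cells (5.14 ± 0.37, adjusted p = 7e-06, edgeR). Nedd4, a ubiquitin ligase of IFITM3, stood at 80.3 and 79.0 CPM, against 17.2 and 7.26 CPM (2.93 ± 0.35), and Vcp, a chaperone ATPase, at 152 and 111 CPM, against 83.5 and 65.4 CPM (0.91 ± 0.19). Setd7, a methyltransferase of IFITM3, was lower (-0.83 ± 0.23), and Zdhhc20, which palmitoylates IFITM3, did not pass (-0.54 ± 0.22). Thus 4 of 5 passed in Ltf-high cells, against 29.6% of all genes. In cycling cells Zmpste24 and Nedd4 were higher and Zdhhc20 and Setd7 lower, 4 of 5 against 60.5% of all genes; in Ngp-positive Ltf-low cells only Vcp passed (0.88 ± 0.23), and in interferon-high cells all 5 missed the threshold, with changes between -0.21 and 0.72.

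Cells of other lineages carried through the sort had other mixtures of the 4 genes. Against mature neutrophils, 59.3% of 8520 genes were called for the liver endothelial-like class (28.3% lower), 55% for plasma-like (26.9% lower), 54.1% for B-like (27.7% lower) and 41.7% for T and NK-like cells (23.6% lower). The share was 28.9% for basophil and mast-like (18.5% lower), 56.2% for classical monocyte-like (28.1% lower) and 47.5% for C1q macrophage-like cells (24.3% lower). Classical monocyte-like cells (1098 and 837 cells, with all 6 markers in at least 20% of cells) had 3317 and 2201 Ifitm3 CPM, against 1123 and 949 CPM in mature neutrophils. Ifitm3 made up 55.4% and 52.4% of their Ifitm UMIs. Nonclassical monocyte-like cells, only 44 and 24 and so not tested, had similar values: 2807 and 2119 Ifitm3 CPM, or 50.5% and 44.1% of Ifitm UMIs. In classical monocyte-like cells Ifitm3 was 2.95-fold and 2.32-fold higher by CPM than in mature cells. But the TMM-scaled change was 0.72 ± 0.37 and did not pass (adjusted p = 0.109, edgeR), and with total UMIs it was 1.41 (adjusted p = 0.00943, edgeR). Ifitm6 also differed with the scaling, at 966 and 553 CPM, against 406 and 310 CPM (0.34 ± 0.33, adjusted p = 0.392 with TMM; 1.04, adjusted p = 0.0198 with total UMIs; both edgeR). Neutrophil markers in monocyte-like cells summed to 16286 CPM in YO1 and 5399 CPM in YO2, with a median of 4 UMIs per cell in each, and Ifitm6 was higher in the same pool; their part in its level was not tested. Stricter lineage calls, with 10 UMIs from 3 markers, gave an Ifitm3 change of 0.85 (adjusted p = 0.0172, edgeR). Ifitm2 was lower (-2.04 ± 0.62, adjusted p = 0.0132, edgeR), a call lost with total UMIs (-1.34, adjusted p = 0.0639) and without either pool's monocyte sum (adjusted p = 0.0597 without YO1 and 0.112 without YO2).

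Within monocyte-like cells all 4 Ifitm genes were higher where interferon genes were found. Those with at least 1 UMI of Ifit1, Ifit3 and Rsad2 had 4661 and 3330 Ifitm3 CPM, against 2978 and 1858 CPM in those with 0, at close median depths (3367 and 4987, against 3120 and 4828 UMIs). Ifitm1 stood at 252 and 377 CPM, against 187 and 248 CPM, Ifitm2 at 1787 and 1487 CPM, against 1436 and 1069 CPM, and Ifitm6 at 1096 and 726 CPM, against 933 and 501 CPM. In Ltf-high cells the same split gave an Ifitm3 level of 1611 CPM, against 1248 CPM, in YO1. In YO2 it was 1395 CPM, against 1415 CPM, so the pools did not share a direction. Ifitm1 was higher there in both pools (231 and 618 CPM, against 113 and 289 CPM). Ifitm2 was too (1185 and 1379 CPM, against 911 and 1027 CPM), while Ifitm6 was lower in both (4885 and 6584 CPM, against 5668 and 7126 CPM). Cells that met no stage or lineage rule had 1597 and 1263 Ifitm3 CPM, against 902 and 570 CPM. Also higher in them were Ifitm1 (987 and 1140 CPM, against 473 and 709 CPM) and Ifitm2 (2151 and 2293 CPM, against 1397 and 1526 CPM). So was Ifitm6 (544 and 207 CPM, against 393 and 137 CPM). These splits were chosen after the data were seen and were not tested.

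Basophil and mast-like cells (73 and 53) had 4998 and 3905 Ifitm1 CPM, against 1774 and 2309 CPM in mature neutrophils, with both values above both mature values. The Ifitm1 share of their Ifitm UMIs was 81.9% and 78.9%. Still, the TMM-scaled change was 0.34 ± 0.52 (approximate 95% interval -0.68 to 1.36, adjusted p = 0.668, edgeR). With total UMIs it was 1.14 (adjusted p = 0.128, edgeR). After thinning, 80.8% and 84.9% of these cells held an Ifitm1 UMI, against 44.9% and 52.2% of mature neutrophils and 4.13% and 7.53% of B-like cells. Ifitm2, Ifitm3 and Ifitm6 were lower than in mature cells (-2.86 ± 0.66, -2.95 ± 0.42 and -4.36 ± 0.52; adjusted p = 0.00514, 0.000219 and 6.29e-05, edgeR), and Ifitm6 had only 5 and 3 UMIs. Without either pool's basophil sum the Ifitm2 call was lost (adjusted p = 0.078 without YO1 and 0.0514 without YO2). The surface marker gene of the sort, Ly6g, was at 0 in the YO1 basophil and mast-like cells and had 1 UMI in those of YO2.

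Cells placed by liver endothelial markers differed between pools. The 609 YO1 cells had all 6 markers in at least 20% of cells, whereas the 31 YO2 cells had 3, with Stab2 and Oit3 at 0, so the YO2 cells are named here only by the rule. Ifitm2 stood at 4329 CPM in the YO1 cells and 805 CPM in the YO2 cells, against 3461 and 3287 CPM in mature neutrophils, and the fitted change was -1.15 ± 0.62 (adjusted p = 0.125, edgeR). It passed without a filter on low counts (-1.09, adjusted p = 0.00639, edgeR) and without the YO1 sum (-2.99, adjusted p = 3.12e-05, edgeR). Ifitm3 stood at 1389 and 1395 CPM, against 1123 and 949 CPM; its change was -0.41 ± 0.37 with TMM (adjusted p = 0.358, edgeR) and 0.43 with total UMIs (adjusted p = 0.383). Ifitm1 and Ifitm6 were lower (-4.15 ± 0.61 and -3.88 ± 0.44; adjusted p = 7.74e-05 and 1.48e-05, edgeR), with 0 Ifitm6 UMIs in YO2, where 3 counts would be 37.7 CPM.

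C1q macrophage-like cells (82 and 109) had mostly Ifitm2, at 1270 and 1559 CPM, and 466 and 585 Ifitm3 CPM, and all 4 genes were lower than in mature neutrophils (log2 changes -3.58, -1.93, -1.66 and -3.11). With total UMIs the Ifitm2 and Ifitm3 calls were lost (adjusted p = 0.0977 and 0.0679, edgeR), as was the Ifitm3 call without the YO1 macrophage sum (adjusted p = 0.0656) and the Ifitm2 call without either macrophage sum or without the YO2 mature sum (adjusted p 0.051 to 0.181). B-like, T and NK-like and plasma-like cells had low levels, 39.4 to 202 Ifitm3 CPM and 21.9 to 61.4 Ifitm6 CPM over both pools, with all 4 genes lower than in mature cells in each lineage. B-like cells also held the neutrophil gene S100a8 at 1379 and 2015 CPM and Csf3r at 197 and 360 CPM, or 21.0% and 27.7% of the pool-wide Csf3r level. Their Ifitm1 was at 20.6% and 26.4% of the pool-wide level and their Ifitm2 at 14.6% and 26.7%. S100a8 was at 4.49% and 12.9% of its pool-wide level in B-like cells, S100a9 at 4.84% and 14.1% and Ngp at 1.24% and 1.21%. The stage rules use S100a8, S100a9 and Ngp, and B-like cells are in no stage, so the rules themselves limit these fractions. The neutrophil gene Cxcr2, which the stage rules do not use, was at 17.2% and 22.5%. Retnlg, also not used by them, was at a lower fraction than Cxcr2 in both pools. The source of these UMIs was not tested. The median depth of B-like cells was 1219 and 1843 UMIs, against 1029 and 1353 UMIs in mature cells.

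**Figure D5:**
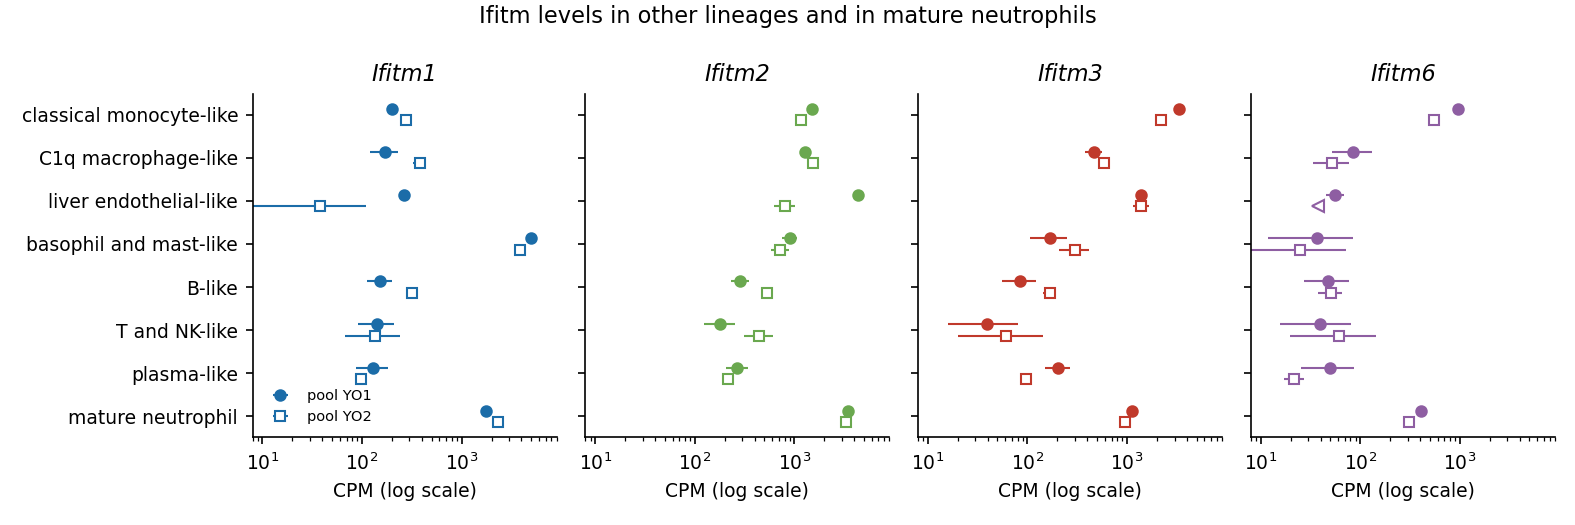
Level of each Ifitm gene (horizontal axis, CPM, log scale) in 7 other lineages and in mature neutrophils; filled circles are YO1, open squares YO2, bars 95% exact Poisson intervals, and a left-pointing triangle the level that 3 counts would give where 0 were found; bars that reach the left edge run beyond it. Among the classes shown, Ifitm3 is highest in classical monocyte-like cells and Ifitm1 in basophil and mast-like cells. The pools part for Ifitm2 in the liver endothelial-like class.

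Classes with at least 30 cells in each pool were ordered by mean CPM over both pools. Ifitm1 ran from basophil and mast-like cells (4451 ± 773, SD, n = 2) through mature neutrophils (2041 ± 378) to cells that met no rule (660.5 ± 177) and Ngp-positive Ltf-low cells (474 ± 231), below which each neighbouring pair overlapped. Ifitm2 was highest in mature neutrophils (3374 ± 123), Ifitm3 in classical monocyte-like cells (2759 ± 789), which overlapped interferon-high mature cells (2100 ± 535), and Ifitm6 in Ltf-high cells (6299 ± 1024).

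The 4 genes were not all alike across classes. Likeness was taken over 30 sums, each of 1 class in 1 pool with at least 30 cells, which share pools and depth. Eosinophil-like and nonclassical monocyte-like cells had such a sum in YO1 only. Mature cells entered both as a whole class and as the classes of the interferon split, so the sums are not independent. The Pearson correlation of log2(CPM + 1) was 0.79 for Ifitm2 and Ifitm3, 0.63 for Ifitm1 and Ifitm2 and 0.50 for Ifitm3 and Ifitm6. It was 0.37 for Ifitm2 and Ifitm6, 0.27 for Ifitm1 and Ifitm3 and 0.15 for Ifitm1 and Ifitm6. Among 3064 genes, 323 were more like Ifitm1 than Ifitm2 was. Ifitm3 ranked 60 in likeness to Ifitm2, with which it shares transcript sequence, and the part of that sharing was not tested. Ifitm1 was most like Osm, a cytokine gene (0.92), Hist1h1c, a linker histone (0.92), and Acod1, which makes itaconate (0.91). Ifitm2 was most like Nfe2l2, an antioxidant transcription factor (0.93), and Tnfrsf1a, a TNF receptor (0.91). Ifitm3 was most like Xdh, xanthine dehydrogenase (0.87), and App, the amyloid precursor protein (0.86), and Ifitm6 most like Wfdc21 (0.94), Prdx5, a peroxidase, and the metabolic gene G6pdx (0.94 each). In interferon-high cells Xdh and App, unlike Ifitm3, did not pass (0.09 ± 0.08 and 0.15 ± 0.08).

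Ifitm3 and Ifitm6 were found together in single mature cells slightly more often than the product of their shares. After thinning, 6.02% of YO1 and 5.17% of YO2 mature cells held both an Ifitm3 and an Ifitm6 UMI, against 4.90% and 4.02% from the product of the single shares. For Ifitm1 and Ifitm2 the shares were 35.6% and 40.3%, against 34.1% and 39.8%. Other pairs also exceeded the product in both pools, such as Ifitm1 and Ifitm2 in Ltf-high cells (2.35% and 6.65%, against 1.64% and 3.96%). Some fell below it in both, such as Ifitm1 and Ifitm3 in Ltf-high cells (1.99% and 3.55%, against 2.15% and 4.63%). These differences were not tested.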

How the data were processed

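Whole-transcriptome single-cell libraries of 2 pools were analysed; the tag libraries and an unidentified one were not used here. The authors deposited counts, as whole UMIs per gene and cell barcode; the build was mm10 per the submitters' processing notes, and neither an aligner nor an annotation is named there. The pools held 20352 and 17720 barcodes with 39713846 and 41839786 UMIs.

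UMIs were summed by class and pool and fitted with edgeR 4.0.16 (R 4.3.3, TMM, filterByExpr, quasi-likelihood test), two-sided, with pool as a block because classes of 1 pool share a cartridge. The 6 sums of the mature split, the 8 stage sums and the lineage sums (lineages with at least 30 cells in each pool) had separate fits, and the genes that define classes were left out. CPM has exact Poisson and shares exact binomial 95% intervals, by scipy 1.17.1. The fit was tested on simulated data. DESeq2 1.42.0 was an alternative, beside other scalings, filters, thresholds, thinning and left-out sums. No doublets were removed; leaving out the deepest 1% of cells was an alternative.

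Genes named are the 4 members, up to 6 of each gene list by mean CPM, and the 5 most alike by Pearson correlation; other listed genes were named after their values were seen. The members and lists were chosen with earlier results of these data known. The values of 1 listed gene are not reported here.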

Additional observations from a re-analysis of the deposited data

Results flagged for a closer look

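The Ifitm2 level of liver endothelial-like cells relative to mature neutrophils went opposite ways in the pools. The CPM ratio was 1.25 in YO1 (609 endothelial-like cells) and 0.245 in YO2 (31 cells, with Stab2 and Oit3 at 0). The difference between the pools was not tested.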

How the results depend on the processing

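Over all alternatives tried, the Ifitm3 change in interferon-high cells ranged between 1.17 and 1.71, and the Ifitm6 change in Ltf-high cells between 3.68 and 4.66 with an adjusted p of at most 3.91e-04. Without pool as a block (the pairing of sums by pool), Ifitm3 stood at 1.29 and Ifitm6 at 0.30 in interferon-high cells, neither passing, with 67 genes called against 354. In Ngp-positive Ltf-low cells Ifitm1 stood at -2.04 and Ifitm2 at -0.91, neither passing, with 227 genes called against 613. The Ifitm6 change in interferon-high cells did not pass with DESeq2 (0.32, 163 genes called), with no filter on low counts (0.24) or in 1 fit of 6 classes (0.29, 87 genes). In that fit, with interferon-0 mature cells as the comparison class, Ifitm3 passed in Ltf-high (0.77) and Ngp-positive Ltf-low cells (0.84, 930 genes called), and against them in the stage fit it passed in Ltf-high cells (0.75). Without cells holding other lineages' markers, Ifitm1 (0.032) and Ifitm2 (0.025) in interferon-high cells changed sign, Ifitm3 in cycling cells was -0.58 and Ifitm2 in Ngp-positive Ltf-low cells -1.06, neither passing; 1958 genes were called in cycling cells against 6288, and 1773 in Ltf-high cells against 3073. In thinned cells Ifitm1 (0.089) and Ifitm2 (0.060) also changed sign, with 184 genes called, and stricter stages gave 1070 calls in Ngp-positive Ltf-low cells. With total UMIs the Ifitm3 change in liver endothelial-like cells was 0.43, against -0.41. The cause of these moves was not tested. Leaving out cells holding other lineages' markers left 71 and 9 cycling, 537 and 40 Ltf-high and 216 and 10 Ngp-positive Ltf-low cells.

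With single sums left out, the Ifitm6 change in interferon-high cells ranged from 0.18 to 0.42 and the calls from 223 to 626, the Ltf-high calls from 1599 to 2032, and the Ngp-positive Ltf-low calls from 3 (without the YO1 sum of that stage) to 644. In the last comparison Ifitm1 ranged from -2.46 to -1.59, Ifitm2 from -1.07 to -0.80 and Ifitm6 from 3.41 to 3.64. A lone sum was assumed to vary like the other classes. The 33 YO2 cells of that stage limit its precision.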

Other observations

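Of the other family members tested, Ifitm5 had 2.06 and 2.01 CPM in Ltf-high cells, against 15.4 and 10.2 CPM in mature cells (log2 change -2.63 ± 0.49, adjusted p = 0.00189, edgeR). Ifitm10 had 13.9 and 2.01 CPM in Ltf-high cells, against 3.59 and 0.682 CPM (2.01 ± 0.65, adjusted p = 0.0362, edgeR). In YO2 Ltf-high cells 3 counts would be 1.51 CPM, so the YO2 values of Ifitm5 and Ifitm10 there rest on few UMIs. Of 5 tested genes that flank the cluster on chromosome 7, Ptdss2 was higher and Pgghg lower in cycling cells (2.34 ± 0.59 and -1.41 ± 0.31) and 3 did not pass, where 60.5% of all genes were called.

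Cells that met no stage or lineage rule had 535 and 786 Ifitm1 CPM, 1489 and 1663 Ifitm2 CPM, 986 and 694 Ifitm3 CPM, and 412 and 149.6 Ifitm6 CPM. Elane and Mpo, which marked the Ltf-low cycling cells of YO1, had 0 UMIs in the corresponding YO2 cells. The pools also differed in cycling cells with at least 5 Ltf UMIs. There YO2 had 1 Elane UMI and 0 Mpo UMIs, while Elane stood at 340 CPM and Mpo at 176 CPM in YO1.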
